A study of Mus musculus with 10 samples.

Results

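The antioxidant defence genes described here are Nqo1, Hmox1, Gclc, Gclm, Txn1, Txnrd1, Prdx1, Sod1, Sod2 and Cat. They were taken by gene symbol from the count table of each library, and all 10 were found among 55573 annotated genes. The sequenced RNA came from bone marrow stem and progenitor cells of the blood-forming lineage (HSPCs), the cells from which blood is renewed. The EGF group holds 5 libraries from irradiated mice given epidermal growth factor, the ligand of the receptor EGFR, under the skin. The Saline group holds 5 libraries from irradiated mice given saline by the same route. Mice of both groups were C57BL/6 (C57BL/6J in the series' design text) and 16 weeks of age per the labels, and all had received 500 cGy of whole-body radiation 6 weeks earlier, so no library comes from unirradiated mice. Not given in the sources used here are the surface markers used to isolate the cells, the number of mice behind each library and the doses of EGF. The comparison asks how transcripts of these genes differ with EGF after radiation injury.

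Cells remove superoxide in steps. Superoxide dismutases turn it into hydrogen peroxide, and catalase, peroxiredoxins and glutathione peroxidases then reduce the peroxide, the peroxiredoxins with electrons from thioredoxin and the glutathione peroxidases with glutathione. Many of these genes are targets of NRF2 (gene Nfe2l2), a transcription factor that KEAP1 holds in check and that binds the antioxidant response element together with small MAF proteins, while BACH1 competes for the same sites. Hematopoietic stem cells are known to keep reactive oxygen low, and ionizing radiation raises it.

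The promoters were searched on both strands for TGACNNNGC, the core letters of the antioxidant response element that NRF2 binds. RefSeq promoter windows (GRCm38.p6; 250 bases before to 50 bases after a start) were matched by symbol for 8 of the 10 members, in 10 windows. The core was found in 4 of these windows, those of Gclm, Prdx1, Sod1 and 1 of the 3 windows of Txnrd1. Among all 32851 promoter windows of the same length, 12.4% hold it. The sites are shown as 30 bases of the gene's own strand, with the core in capitals. In each case the core lies on the other strand, so that its letters are reversed and complemented here.
Gclm, chr3:122245413-122245442, plus strand: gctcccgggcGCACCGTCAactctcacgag
Prdx1, chr4:116685456-116685485, plus strand: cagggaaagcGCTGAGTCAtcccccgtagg
Txnrd1, chr10:82859104-82859133, plus strand: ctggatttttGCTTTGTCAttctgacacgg
Sod1, chr16:90220696-90220725, plus strand: gccaaggtggGCGTGGTCAgactcaggcct
The core begins 134 bases before the start for Gclm, 133 for Prdx1, 92 for Txnrd1 and 56 for Sod1. The core in Prdx1 overlaps a match to TGACTCA, the letters bound by AP-1 factors, which 5.20% of all windows hold in either direction. A match describes letters only. Windows of Nqo1, Txn1, Sod2 and Cat hold no match to the core.

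Depth was similar in all libraries, between 6805106 and 8370820 counts. EGF replicate 5 stood apart: 12731 genes had a count in it, against 18734 to 20046 in the other 9 libraries. For 81.3% of 12874 genes tested, its level lay outside the range of the other 9. The members' results are therefore given with and without it. The share of counts from genes of the mitochondrial genome was 7.72% to 10.04% in EGF libraries and 5.89% to 7.43% in Saline libraries, without overlap. Malat1, a nuclear RNA, took 0.387% to 1.62% of counts in EGF libraries and 0.336% to 0.444% in Saline libraries. All 15 markers of stem and progenitor cells had counts, with a summed level of 3013 to 3739 CPM in EGF libraries and 2750 to 3055 CPM in Saline libraries. CPM are counts scaled to library size, here with edgeR's TMM factors. Markers of B and plasma cells (12 of 12 with counts) summed to 1317 to 5759 CPM in EGF libraries and 4492 to 10390 CPM in Saline libraries. The 12 granulocyte markers summed to 1777 to 2885 CPM in EGF libraries and 1682 to 5859 CPM in Saline libraries. Within that list the 5 genes of early (primary) granule stages had log2 fold changes (EGF over Saline) of -1.11 for Prtn3, -0.97 for Ms4a3, -0.91 for Elane, -0.81 for Ctsg and -0.63 for Mpo. By edgeR none of these passed, each at an adjusted p of 0.551, while DESeq2 called Prtn3 at 0.0195. Of the late neutrophil genes, S100a9, Ngp and Ltf were at 175.7, 130.1 and 129.3 CPM in EGF replicate 5. The other 4 EGF libraries had at most 25.2, 25.6 and 20.1 CPM, and Saline libraries at most 128.9, 90.6 and 56.2 CPM. Camp, at 25.5 CPM, and Lcn2, at 41.3 CPM, were also highest in EGF replicate 5. Others were not: S100a8 was at 13.9 CPM there, against 61.4 CPM in Saline replicate 4, and Retnlg was at 0 there. Of the 12 macrophage markers, 11 had counts, and their sums were 87.8 to 111.7 CPM in EGF libraries and 63.1 to 219 CPM in Saline libraries. Marco was at 0 in all 10 libraries. At 0 in EGF replicate 5 were 8 of the 12 macrophage markers (Marco, C1qa, C1qb, C1qc, Adgre1 and Vcam1 among them), 8 of 10 T and NK cell markers, 4 of 12 erythroid markers and 1 of the 15 stem and progenitor markers, Procr. Several of these were low everywhere: C1qa, C1qb and C1qc had at most 7, 11 and 9 counts in any library. The share of all genes tested at 0 in EGF replicate 5 was not computed. The part of these measures in the results below was not tested. In bulk RNA, fewer cells of a type and less RNA per cell cannot be told apart.

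None of the 10 antioxidant genes passed edgeR's quasi-likelihood test of EGF against Saline after Benjamini-Hochberg adjustment over all 12874 genes tested, at a threshold of 0.05. In that test 1 gene of all passed, 0.00777% of those tested. Without EGF replicate 5, 0 members and 0.0611% of all genes passed. DESeq2 also called 0 members, giving no adjusted p to Nqo1 and Hmox1 with all libraries, where it called 0.672% of the 8334 genes it gave an adjusted p. It called 2.49% of 12588 such genes without EGF replicate 5. All 10 members passed the filter on low counts. Below 0 were the log2 fold changes of 7 members, above 0 those of 3, and their median was -0.22, against -0.01 over all genes (51.5% of them below 0). At an unadjusted p under 0.05 there were 2 members, Sod2 and Txn1, both lower with EGF; 2.73% of all genes were lower at that level. The EGF and Saline libraries overlapped for every member, while they did not for 3.27% of all genes (1.65% with EGF below). Without EGF replicate 5, all 10 members were below 0, against 50% of the 13104 genes then tested. With library size in place of TMM scaling in that comparison, Gclc stood at 0.0001. With EGF replicates 3 and 4 left out too, 7 of 10 were below 0.

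**Figure D1:**
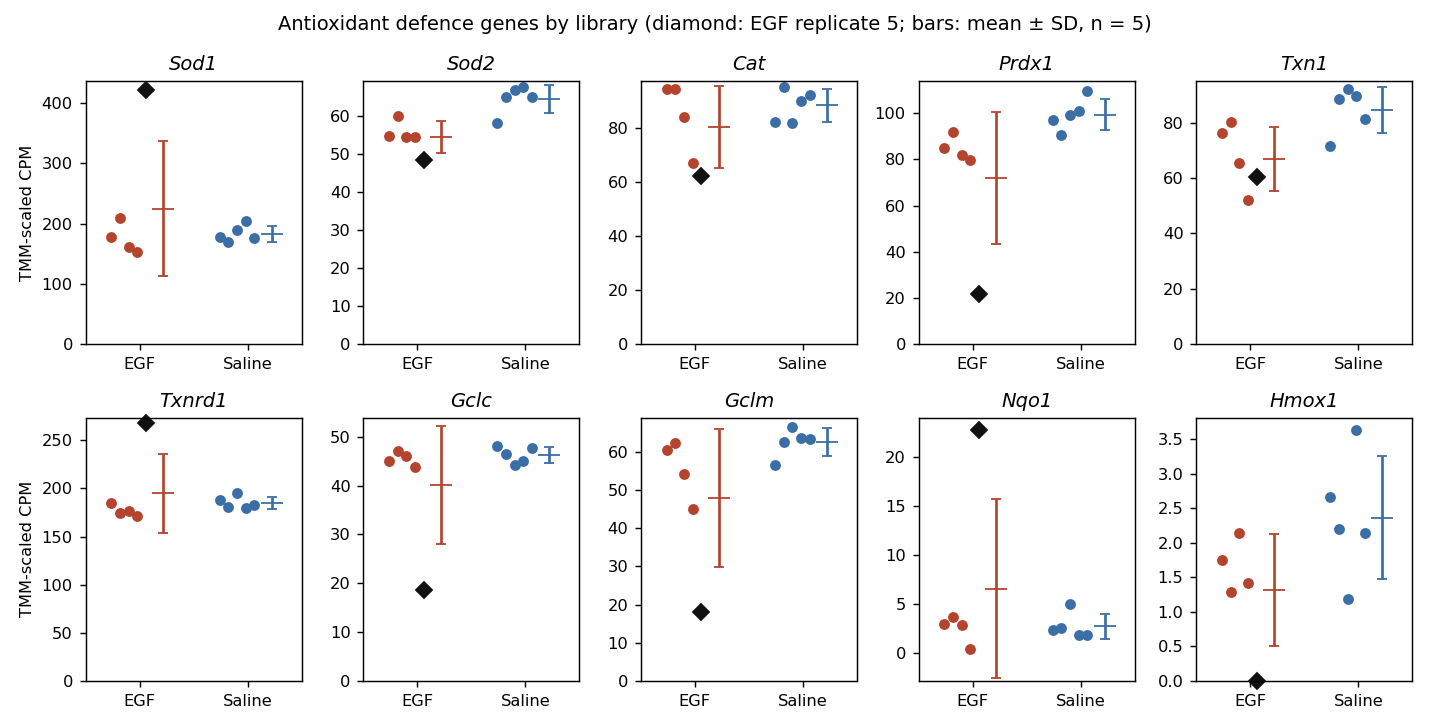
Level of each antioxidant gene (TMM-scaled CPM, linear axis) in every library, EGF on the left and Saline on the right; black diamonds are EGF replicate 5, and bars are the mean ± SD of 5 libraries. EGF replicate 5 lies above the other 9 libraries for Nqo1, Txnrd1 and Sod1, and below them for Hmox1, Gclc, Gclm, Prdx1, Sod2 and Cat.

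Among the enzymes that remove superoxide, Sod2 lay below every Saline library in 4 of 5 EGF libraries and Sod1 in 2 of 5, and neither passed the test. Sod2 encodes the manganese superoxide dismutase of the mitochondrial matrix (chromosome 17 from 13006846 to 13040063, plus strand). In EGF libraries 1 to 5 it was at 54.9, 60.1, 54.5, 54.5 and 48.6 CPM, against 58.1, 65.0, 66.8, 67.6 and 65.2 CPM in Saline libraries 1 to 5. In 4 EGF libraries the level was below all Saline libraries, and EGF replicate 2 lay above Saline replicate 1, the lowest of its group. The EGF libraries averaged 54.5 ± 4.08 CPM and the Saline libraries 64.5 ± 3.75 CPM (SD, n = 5 each). This gave a log2 fold change of -0.24 (SE 0.09), with an edgeR adjusted p of 0.551 and an unadjusted p of 0.021. It was the smallest p of the 10 members, at rank 465 of all genes. Without EGF replicate 5 the log2 fold change was -0.20 (SE 0.07, edgeR adjusted p = 0.217).

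Sod1 encodes the copper-zinc superoxide dismutase of the cytosol (chromosome 16 from 90220754 to 90226329, plus strand). It was at 178, 209, 160.5, 153 and 421 CPM in EGF libraries 1 to 5, against 177, 170.0, 189, 204 and 176 CPM in Saline libraries 1 to 5. EGF replicate 5 was 2.30-fold the Saline mean, and the other EGF libraries spread to both sides of the Saline range. EdgeR gave Sod1 a log2 fold change of 0.29 (SE 0.25, edgeR adjusted p = 0.679) with all libraries and -0.07 (SE 0.09, edgeR adjusted p = 0.747) without EGF replicate 5. Of the 50-base words of the main Sod1 transcript, 23.1% also occur in Gm8566, so its counts are uncertain where reads were shared.

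Cat encodes catalase, the peroxisomal enzyme that splits hydrogen peroxide (chromosome 2 from 103453849 to 103485160, minus strand). Its levels were 94.4, 94.5, 84.2, 67.0 and 62.1 CPM in EGF libraries 1 to 5 and 82.2, 95.2, 81.9, 89.9 and 92.3 CPM in Saline libraries 1 to 5. EGF replicates 4 and 5 lay below all Saline libraries, and the other 3 lay within the Saline range. For Cat the log2 fold change was -0.13 (SE 0.13, edgeR adjusted p = 0.717), and -0.06 (SE 0.10, edgeR adjusted p = 0.816) without EGF replicate 5. With EGF replicates 1 and 2 alone it was 0.10.

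The peroxiredoxin and thioredoxin genes held the other members with the lowest p. Prdx1 encodes the abundant cytosolic peroxiredoxin (chromosome 4 from 116685544 to 116700822, plus strand). Its levels were 84.8, 92.0, 81.8, 79.9 and 21.6 CPM in EGF libraries 1 to 5, against 97.2, 90.4, 99.0, 101 and 109.5 CPM in Saline libraries 1 to 5. In 4 EGF libraries the level was below all Saline libraries, and EGF replicate 2 lay just above Saline replicate 2. The log2 fold change was -0.46 (SE 0.30, edgeR adjusted p = 0.610), or -0.23 (SE 0.07, edgeR adjusted p = 0.180, unadjusted p = 0.00577) without EGF replicate 5, the library at 0.217 of the Saline mean. Without that library Prdx1 had the smallest p of the members, and 3 members, Prdx1, Sod2 and Txn1, were lower at an unadjusted p under 0.05, where 7.39% of all genes were. Transcripts of 3 other genes share 10.9% of the 50-base words of Prdx1.

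Txn1 encodes cytosolic thioredoxin, which hands electrons to peroxiredoxins (chromosome 4 from 57943373 to 57956411, minus strand). It was at 76.2, 80.4, 65.3, 52.1 and 60.4 CPM in EGF libraries 1 to 5, against 71.6, 88.4, 92.2, 89.5 and 81.5 CPM in Saline libraries 1 to 5. EGF replicates 3, 4 and 5 lay below all Saline libraries, and EGF replicates 1 and 2 lay within their range. The EGF libraries averaged 66.9 ± 11.5 CPM and the Saline libraries 84.6 ± 8.31 CPM (SD, n = 5 each). On the log2 scale Txn1 differed by -0.34 (SE 0.13, edgeR adjusted p = 0.551, unadjusted p = 0.0227). It was the member whose level in EGF replicate 5 stayed inside the range of the other 9 libraries. Without that library the log2 fold change was -0.31 (SE 0.12, edgeR adjusted p = 0.242), and with EGF replicates 1 and 2 alone it was -0.11.

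Txnrd1 encodes thioredoxin reductase, which recharges thioredoxin from NADPH (chromosome 10 from 82833951 to 82897712, plus strand). EGF libraries 1 to 5 had 185, 174, 177, 171 and 268 CPM, against 188, 181, 195, 179 and 183 CPM in Saline libraries 1 to 5. Apart from EGF replicate 5 it varied little, with a coefficient of variation of 3.30% over the other 4 EGF libraries and 3.41% over the Saline libraries. Its log2 fold change was 0.07 (SE 0.12, edgeR adjusted p = 0.833), and -0.07 (SE 0.05, edgeR adjusted p = 0.549) without EGF replicate 5.

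The 2 subunits of glutamate-cysteine ligase, which makes the first step of glutathione synthesis, gave no call. Gclc encodes the catalytic subunit (chromosome 9 from 77754535 to 77794485, plus strand). It was at 45.0, 47.1, 46.1, 43.9 and 18.6 CPM in EGF libraries 1 to 5, against 48.1, 46.6, 44.2, 45.0 and 47.7 CPM in Saline libraries 1 to 5. The 9 libraries other than EGF replicate 5 spanned 0.13 on the log2 scale, the narrowest span of any member. For Gclc the log2 fold change was -0.21 (SE 0.22, edgeR adjusted p = 0.741), and -0.03 (SE 0.07, edgeR adjusted p = 0.891) without EGF replicate 5.

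Gclm encodes the modifier subunit (chromosome 3 from 122245557 to 122270732, plus strand). EGF libraries 1 to 5 had 60.4, 62.5, 54.4, 44.9 and 18.1 CPM, against 56.6, 62.5, 66.6, 63.7 and 63.3 CPM in Saline libraries 1 to 5. EGF replicates 3, 4 and 5 lay below all Saline libraries. The log2 fold change was -0.38 (SE 0.26, edgeR adjusted p = 0.631), and -0.17 (SE 0.10, edgeR adjusted p = 0.393) without EGF replicate 5. With EGF replicates 1 and 2 alone it was -0.03. Exons of other genes overlap 3.88% of its exonic bases on the same strand and 4.71% on the other strand.

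Nqo1 and Hmox1, 2 genes widely used as readouts of NRF2, had the lowest levels and gave no call. Nqo1 encodes a quinone reductase that uses NADH or NADPH (chromosome 8 from 107388225 to 107403206, minus strand). It had 24, 29, 20, 4 and 162 counts in EGF libraries 1 to 5, against 19, 20, 42, 14 and 14 counts in Saline libraries 1 to 5. In CPM, EGF replicate 5 was at 22.7, the other EGF libraries were at 0.472 to 3.73, and the Saline libraries were at 1.87 to 4.99. The log2 fold change of 1.24 (SE 0.81, edgeR adjusted p = 0.613) thus rested on EGF replicate 5, and it was -0.15 (SE 0.48, edgeR adjusted p = 0.911) without it. Hmox1 encodes heme oxygenase, which breaks down heme and is abundant in macrophages that clear red cells (chromosome 8 from 75093621 to 75100589, plus strand). It had 14, 10, 15, 12 and 0 counts in EGF libraries 1 to 5, against 21, 17, 10, 27 and 16 counts in Saline libraries 1 to 5. A count of 0 in EGF replicate 5 allows up to 0.42 CPM, taken as 3 counts. Its log2 fold change was -0.83 (SE 0.67, edgeR adjusted p = 0.668), and -0.52 (SE 0.36, edgeR adjusted p = 0.50) without EGF replicate 5. With all libraries the SEs of Nqo1 and Hmox1 were the widest of the members. The parts of low counts and of spread between libraries in these SEs were not tested.

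**Figure D2:**
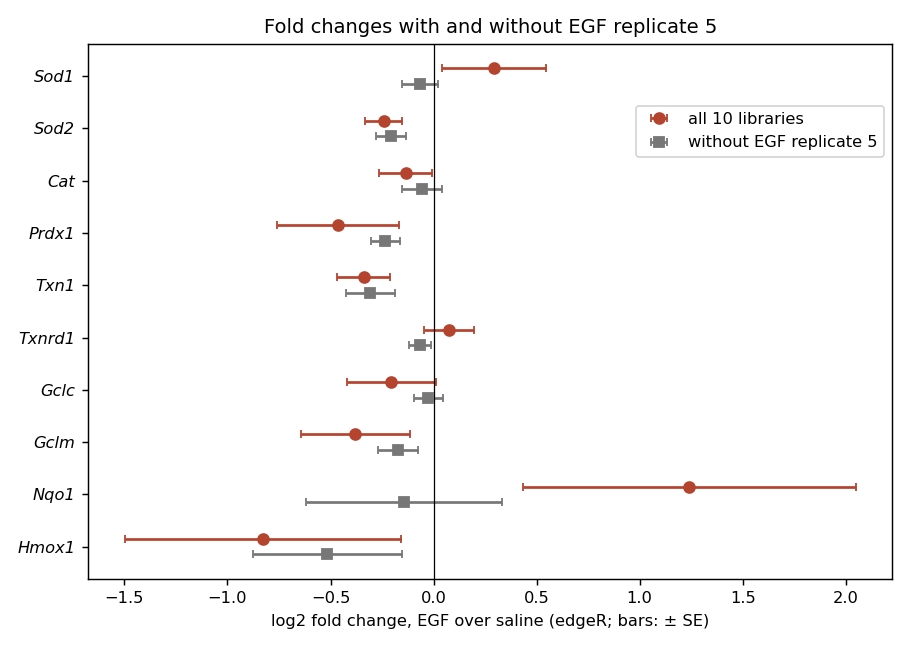
Log2 fold change of EGF over Saline for each antioxidant gene (edgeR; bars are ± SE), with all 10 libraries (circles) and without EGF replicate 5 (squares). Sod2, Txn1 and Prdx1 stay below 0 in both, while Nqo1, Sod1 and Txnrd1 stand above 0 with EGF replicate 5 and below 0 without it.

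The antioxidant genes did not move as a block in EGF replicate 5, and neither did all genes tested. Relative to the Saline mean, that library had 8.25-fold the level of Nqo1, 2.30-fold that of Sod1 and 1.45-fold that of Txnrd1. It had 0.753 of the level of Sod2, 0.713 of Txn1, 0.703 of Cat, 0.402 of Gclc, 0.289 of Gclm and 0.217 of Prdx1. Of the members, 9 lay outside the range of the other 9 libraries there, 3 above and 6 below, beside 33.7% of all genes above and 47.7% below. The summed level of the 10 members was 941 CPM in that library, 668 to 826 CPM in the other EGF libraries and 784 to 845 CPM in the Saline libraries. Sod1 and Txnrd1 carried the high sum. Without these 2 genes it was 252 CPM in EGF replicate 5, the lowest of all libraries. The other EGF libraries then had 344 to 442 CPM and the Saline libraries 419 to 463 CPM. Within the EGF group, 9 of 10 members had a lower mean in replicates 3 and 4 than in replicates 1 and 2, Hmox1 being the exception. The share of all genes with that order was not computed, so the count is not shown to be particular to these genes. Replicates 3 and 4 had Malat1 shares of 0.908% and 0.905%, against 0.521% and 0.387% in replicates 1 and 2; the part of this in the levels was not tested.

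Ratios between partners within a library do not depend on how libraries are scaled, and 3 of them were compared. The log2 ratio of Sod2 to Sod1 was -1.69, -1.80, -1.55, -1.49 and -3.11 in EGF libraries 1 to 5, against -1.60, -1.38, -1.50, -1.59 and -1.43 in Saline libraries 1 to 5. EGF replicate 5 stood apart and the rest overlapped, with a difference of the means of -0.43. The log2 ratio of Txnrd1 to Txn1 averaged 1.53 ± 0.40 with EGF and 1.13 ± 0.16 with Saline (SD, n = 5 each), a difference of 0.40. EGF replicates 3, 4 and 5 lay above all Saline libraries. The log2 ratio of Gclc to Gclm averaged -0.21 ± 0.21 with EGF and -0.43 ± 0.13 with Saline (SD, n = 5 each), a difference of 0.22. By exact two-sided permutation tests over the libraries, p was 0.0794 for Sod2 to Sod1, 0.0635 for Txnrd1 to Txn1 and 0.103 for Gclc to Gclm. Each came to an adjusted p of 0.103 over the 3 ratios, where the smallest unadjusted p possible is 0.00794. Without EGF replicate 5 the differences were -0.13, 0.25 and 0.16, and the exact permutation test gave an adjusted p of 0.183 for each.

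**Figure D3:**
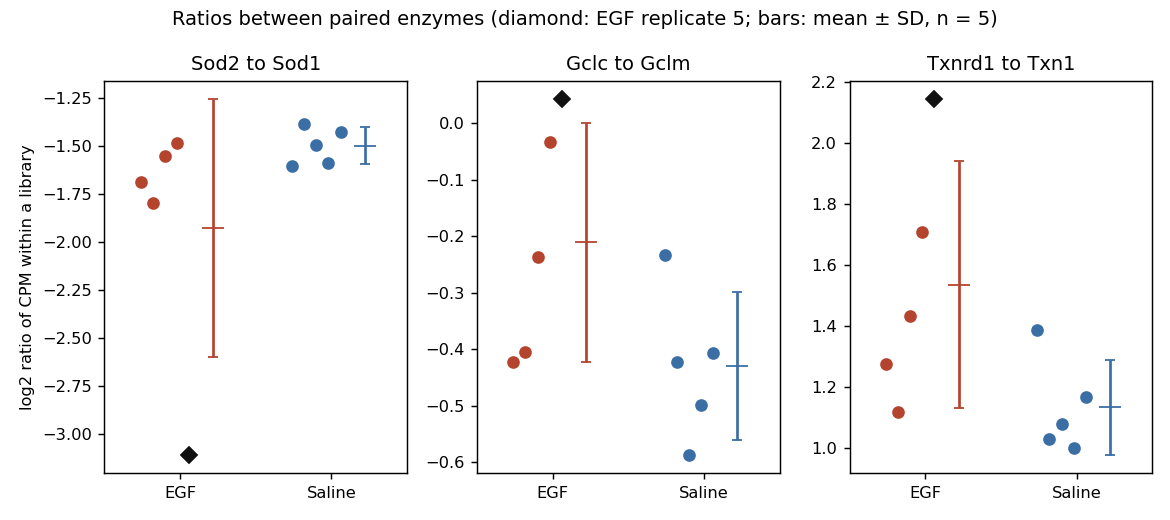
Log2 ratio of the CPM of partner genes within each library, EGF on the left and Saline on the right; black diamonds are EGF replicate 5, and bars are the mean ± SD of 5 libraries. The groups overlap in all 3 panels, and EGF replicate 5 is the extreme library in each, at -3.11 for Sod2 to Sod1 and 2.14 for Txnrd1 to Txn1.

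Levels of different genes were compared per length, as CPM per kilobase of the main transcript in GENCODE M21. In the Saline libraries Sod1 stood highest, at 286 CPM per kilobase, followed by Txn1 at 80.5, Txnrd1 at 52.4, Prdx1 at 43.3 and Cat at 33.8. Gclc followed at 13.5, Gclm at 11.2 and Sod2 at 11.01, and Nqo1 and Hmox1 were lowest at 1.77 and 1.51. The ranges over the 5 Saline libraries overlapped for Gclm and Sod2 and for Nqo1 and Hmox1. The order of these neighbours within a library was not tested. In the EGF libraries other than replicate 5 the order began with Sod1 at 273 and Txn1 at 65.2 CPM per kilobase and ended with Nqo1 at 1.62 and Hmox1 at 1.05. The order depends on the length used: per kilobase of merged exons, which include retained introns, Sod1 stood at 46.1 in the Saline libraries, below Txn1 at 80.5.

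Other genes of the pathway were read from 8 lists with 97 genes, of which 90 passed the filter on low counts. None passed edgeR's test over all genes. Of the 90, 59 lay below 0 (median log2 fold change -0.13), beside 51.5% of all genes; 7 were lower and 1 higher at an unadjusted p under 0.05, where 2.73% and 6.14% of all genes were. Without EGF replicate 5, 65 of 90 were below 0 (median -0.10), with 18 lower and 3 higher at that level, where 7.39% and 8.38% of all genes were. Because the lists were chosen with earlier results of the same libraries known, their direction is no independent evidence.

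Of 10 tested genes that supply NADPH, the electron donor for both glutathione and thioredoxin reduction, 8 were below 0, with a median of -0.19. Pgd, an NADPH-making enzyme of the pentose phosphate pathway, was at 59.9, 60.9, 55.4, 61.1 and 51.8 CPM in EGF libraries 1 to 5, against 73.4, 73.0, 90.7, 96.2 and 86.4 CPM in Saline libraries 1 to 5. The groups did not overlap, with EGF below, an order seen for 1.65% of all genes tested. Pgd was named for its low p, so this separation is no further evidence. Pgd had a log2 fold change of -0.54 (SE 0.10), which edgeR did not call (adjusted p = 0.402) and DESeq2 did (adjusted p = 0.0016). Tkt, a transketolase of the same pathway, was at -0.21 (SE 0.09) and Pgls, which makes 6-phosphogluconate, at -0.42 (SE 0.19), each with an edgeR adjusted p of 0.551.

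Of 17 tested glutathione peroxidases and transferases, 12 were below 0, with a median of -0.34. Among them Gpx7, Gstk1, Gstm2, Gstm5, Gstt2, Gstt3, Mgst1, Mgst2 and Mgst3 had 0 counts in EGF replicate 5. The share of all genes tested at 0 in EGF replicate 5 was not computed. Without that library 13 of 17 were below 0, with a median of -0.25. Gpx1, the main cytosolic glutathione peroxidase, averaged 372 ± 22.7 CPM in EGF libraries and 436 ± 57.5 CPM in Saline libraries (SD, n = 5 each), a log2 fold change of -0.23 (SE 0.10, edgeR adjusted p = 0.551). Gstm1, a glutathione transferase, was at 45.3, 39.0, 46.9, 49.2 and 8.96 CPM in EGF libraries 1 to 5, against 44.4, 62.4, 67.9, 87.5 and 71.4 CPM in Saline libraries 1 to 5. Its log2 fold change was -0.82 with all libraries and -0.56 without EGF replicate 5 (edgeR adjusted p = 0.551 and 0.165). Gstp1 had -0.46 (SE 0.21), with the same adjusted p of 0.551.

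Of 19 thioredoxin, peroxiredoxin, glutaredoxin and methionine sulfoxide reductase genes, 15 were below 0, with a median of -0.22 and no gene at an unadjusted p under 0.05. The leading ones by p were Glrx2, a mitochondrial glutaredoxin, at -0.31 (SE 0.16), Prdx5 at -0.48 (SE 0.27) and Prdx2, a peroxiredoxin abundant in red cells, at -0.22 (SE 0.14). Of 7 tested genes of glutathione supply, 4 were below 0. Slc3a2, the heavy chain of amino acid transporters, was at -0.32 (SE 0.14), with an edgeR adjusted p of 0.551. Chac2 at 0.47 and Ggct at 0.29, both of glutathione breakdown, were at -0.09 and -0.002 without EGF replicate 5.

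Of 7 tested genes of superoxide production and dismutase partners, 5 were below 0. Cyba, the small subunit of the phagocyte NADPH oxidase, averaged 25.3 ± 2.78 CPM in EGF libraries and 33.3 ± 6.08 CPM in Saline libraries (SD, n = 5 each), a log2 fold change of -0.40 (SE 0.15, edgeR adjusted p = 0.551). Rac2, the GTPase of that oxidase, was at -0.36 (SE 0.28). Of 10 genes of heme, iron and quinone handling, 6 were below 0, with a median of -0.08. The ferritin chain genes Ftl1 and Fth1 had -0.31 (SE 0.17) and -0.23 (SE 0.21), and the carbonyl reductase gene Cbr1 had 0.32 (SE 0.19).

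The regulators of the NRF2 response lay on both sides of 0, with 5 of 11 above, and none had an unadjusted p under 0.05. Nfe2l2 was at 61.1, 61.8, 61.5, 52.6 and 20.3 CPM in EGF libraries 1 to 5, against 56.5, 54.1, 64.1, 60.2 and 55.8 CPM in Saline libraries 1 to 5. EGF replicate 5 stood below all others, and the rest overlapped (log2 fold change -0.18 with it and 0.03 without it). Keap1 had -0.09 (SE 0.18) and Bach1 0.26 (SE 0.13). The small MAF genes Mafk and Mafg had 0.30 (SE 0.14) and 0.47 (SE 0.23), and 0.17 each without EGF replicate 5. The edgeR adjusted p was 0.551 for Bach1, Mafk and Mafg.

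Of 9 genes of FOXO factors, sestrins and related regulators, 6 were above 0, with a median of 0.06. Atm, the DNA damage kinase that also senses oxidation, averaged 171 ± 15.6 CPM in EGF libraries and 150.1 ± 8.46 CPM in Saline libraries (SD, n = 5 each), a log2 fold change of 0.19 (SE 0.08, edgeR adjusted p = 0.551). Foxo3, a transcription factor that maintains stem cells, was at 240.0, 237, 228, 249.8 and 162 CPM in EGF libraries 1 to 5, against 224, 221, 178, 193 and 218 CPM in Saline libraries 1 to 5. The first 4 of these EGF libraries lay above all Saline libraries and EGF replicate 5 lay below them. The share of all genes with such an order is not given here. Foxo3 was not called, with a log2 fold change of 0.11 (SE 0.12, edgeR adjusted p = 0.750). Without EGF replicate 5 its log2 fold change was 0.21 (SE 0.07, edgeR adjusted p = 0.216). Tigar, which diverts glucose toward NADPH, was at 4.25 to 5.85 CPM in EGF libraries 1 to 4 and at 86.8 CPM in EGF replicate 5, against 3.55 to 9.81 CPM in Saline libraries.

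By edgeR, none of the leading pathway genes passed without EGF replicate 5, with adjusted p from 0.0886 for Pgd to 0.997 for Ggct. DESeq2 on the same libraries called Pgd, at an adjusted p of 0.000428, and Gstm1, at 0.0205. In that comparison the log2 fold change was -0.50 for Pgd, -0.20 for Tkt and -0.28 for Pgls. Among glutathione and thioredoxin genes it was -0.25 for Gpx1, -0.34 for Gstp1, -0.28 for Glrx2 and Prdx5, -0.11 for Prdx2 and -0.21 for Slc3a2. Of the oxidase genes, Cyba stood at -0.38 and Rac2 at -0.15, and of the iron and carbonyl genes Ftl1 stood at -0.17, Fth1 at -0.05 and Cbr1 at 0.21. For the regulators it was 0.03 for Keap1, 0.15 for Bach1, 0.15 for Atm, 0.21 for Foxo3 and -0.21 for Tigar. The positive value of Tigar with all libraries, 1.82, thus rested on EGF replicate 5.

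**Figure D4:**
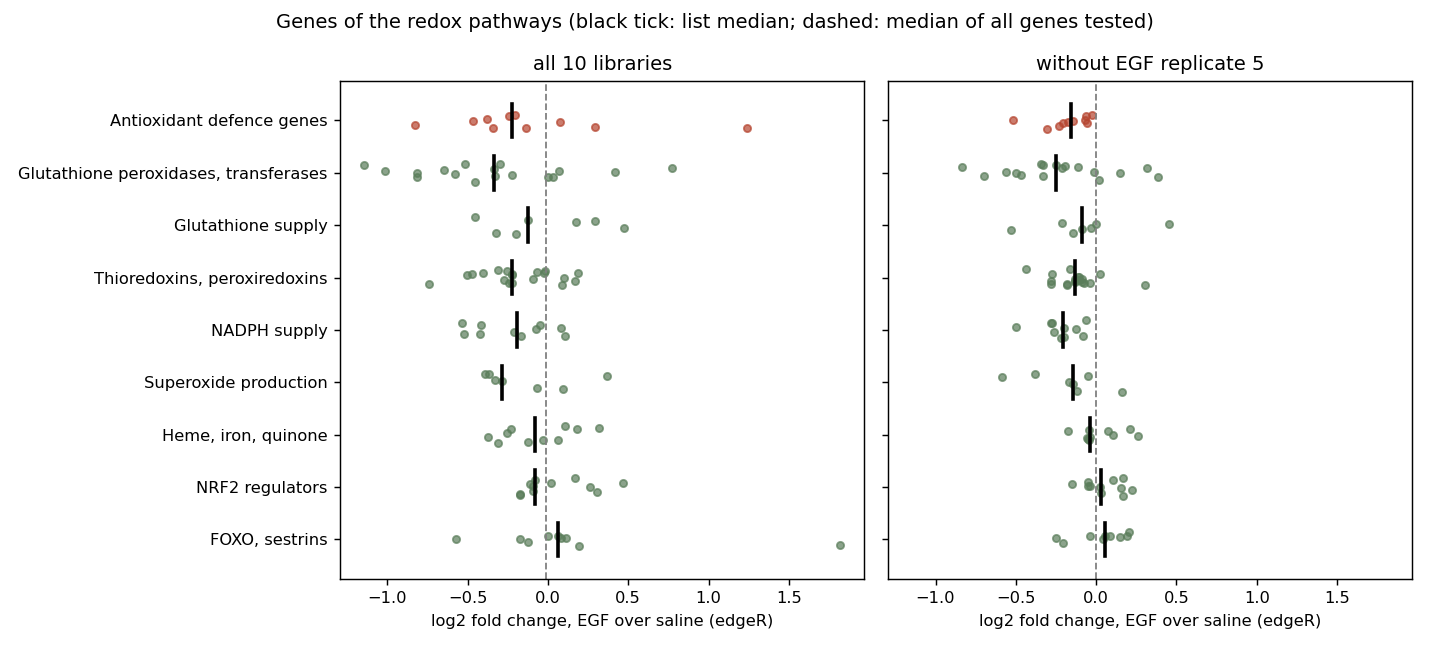
Log2 fold change of EGF over Saline (edgeR) for each tested gene of the antioxidant group and the 8 pathway lists, with all 10 libraries on the left and without EGF replicate 5 on the right; black ticks are list medians and the dashed line is the median of all genes tested. Most list medians lie below that line. The lowest is that of glutathione peroxidases and transferases, at -0.34 in the left panel and -0.25 in the right. Those of FOXO factors and sestrins lie above it at 0.06 in both panels.

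The profile over the 10 libraries most like that of Sod2 was found in Hprt, which salvages purines, Aldoa, an aldolase of glycolysis, and Tkt. Their centred log2 CPM differed from that of Sod2 by a root mean square of 0.062, 0.063 and 0.064, where the median over all genes tested was 0.423. For Nqo1, the member with the widest range, the closest profiles were those of Particl, Gm26637 and Gbx2, at 0.415, 0.496 and 0.506, where the median was 1.26. These distances over shared libraries are a description of likeness.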

How the data were processed

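The authors deposited whole-number counts of reads per gene, 1 file per library, with no normalization. Per the labels' protocols, a Qiagen kit was used for RNA and a Clontech kit, with rRNA depletion and PCR, for the libraries. STAR, bcl2fastq 2.17, mm10 and GRCm38 are listed in the submitters' processing notes. Not given in the sources used here are the counting tool, its strand setting and its annotation, so reads of genes that overlap on the 2 strands cannot be told apart. GENCODE M21 (GRCm38) gave positions and lengths.

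Counts were tested with edgeR 4.0.16 (R 4.3.3; TMM, filterByExpr with a minimum count of 10, quasi-likelihood F test, Benjamini-Hochberg adjustment over all genes, threshold 0.05), after a test of the procedure on simulated data. Standard errors were taken from the F statistic. CPM use TMM factors, and log2 CPM a prior count of 2. DESeq2 1.42.0, limma 3.58.1, other scalings and filters, a replicate block and left-out libraries were alternatives. Main transcripts are APPRIS principal ones. Nnt was left out because 2 identifiers carry its symbol. The members and lists were chosen with earlier results of these data known. Pathway genes were named by the 3 smallest p of each list, with Nfe2l2, Keap1 and Bach1 always named. Of these, 1 gene is not reported here. No 2 libraries of a group were repeats of each other (chi-square per degree of freedom of their counts at least 6.51). Nothing in the labels says that libraries came from separate mice, so the spread behind each p-value may be technical. PCR copies cannot be told apart in counts, so limits from depth cover counting error only.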

Additional observations from a re-analysis of the deposited data

Results flagged for a closer look

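In groups of 5 libraries, Dixon's test marked 7 of 26 groups of values, where chance marks about 1 in 20. The groups share libraries and genes, so they are not independent, and the share marked over all genes was not computed. In 6 of the 7 marked groups EGF replicate 5 was the library far from the other 4 of its group. That library lay outside the range of the other 9 for 81.3% of all genes tested. It had 0 CPM of Hmox1, 18.6 CPM of Gclc, 18.1 CPM of Gclm and 21.6 CPM of Prdx1, each below the rest of the EGF group. It had 268 CPM of Txnrd1, above the rest, and a log2 ratio of Sod2 to Sod1 of -3.11, below the rest. The other value was Sod2 in Saline replicate 1, at 58.1 CPM, below the other Saline libraries at 65.0 to 67.6 CPM. EGF replicate 5 also had the fewest genes with a count, 12731.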

How the results depend on the processing

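No antioxidant gene passed under any of the 24 alternatives run, 2 of which (DESeq2 and library size scaling, each without EGF replicate 5) were added after the data were seen. The lowest adjusted p was 0.0914, for Prdx1 by DESeq2 without EGF replicate 5. Hmox1, Gclm, Txn1, Prdx1 and Sod2 were below 0 under all of them, with Sod2 between -0.28 and -0.17. Without EGF replicate 5 the sign turned for Nqo1 (-0.145; DESeq2 -0.138; library size -0.132), Txnrd1 (-0.0679; DESeq2 -0.0665; library size -0.0416) and Sod1 (-0.065; DESeq2 -0.063; library size -0.0411), and for Gclc with library size (0.0001). With any 1 library left out, Nqo1 lay between -0.145 and 1.57, Txnrd1 between -0.0679 and 0.118 and Sod1 between -0.065 and 0.403. The sign also turned with limma-voom and quality weights for Nqo1 (-0.0493), Txnrd1 (-0.0462) and Sod1 (-0.0406), and without EGF replicates 3, 4 and 5 for Txnrd1 (-0.0458) and Cat (0.0958). Over all genes 1 was called by edgeR, 56 by DESeq2, 12 by limma-voom with quality weights, 0 with library size scaling and 0 without EGF replicates 3 and 4. Any 1 library left out gave 0 to 8 calls (8 without EGF replicate 5), as did 8 with library size scaling without EGF replicate 5, where DESeq2 called 313. Pathway genes called were 1 by DESeq2 (Pgd) and 5 by DESeq2 without EGF replicate 5, of 90 tested. DESeq2 called 0.672% and 2.49% of all genes given an adjusted p in these 2 fits. With all libraries it gave none to some of the 90, Ggct and Chac2 among them, so the bases differ. The ratio differences kept sign and no adjusted p reached the threshold. With the replicate block 0 genes were called. Libraries of the same number did not deviate together (correlations -0.078 to 0.019, and 0 of 5 matched best with their own number). Pairing by number was thus not seen, though 5 numbers are few for such a check. By sign-flip tests over pairs the adjusted p of each ratio was 0.25. The cause of these shifts was not tested. Nqo1 and Hmox1 had 0 to 162 counts, and the part of depth in their results was not tested.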

Other observations

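With DESeq2 and without EGF replicate 5, 5 of the 90 tested pathway genes passed, 4 of them lower and 1 higher with EGF. Beside them, 2.49% of the 12588 genes given an adjusted p passed in that fit. How many of the 90 were given an adjusted p was not counted. Gsr, Txnip and Idh2 are named here after their values were seen. Gsr, which recycles glutathione, was at 77.5, 72.6, 74.6, 90.7 and 181.5 CPM in EGF libraries 1 to 5, against 81.4, 98.6, 119, 165 and 106.7 CPM in Saline libraries 1 to 5. Its log2 fold change without EGF replicate 5 was -0.53 (DESeq2 adjusted p = 0.0319; edgeR adjusted p = 0.180), and EGF replicate 5 lay above all other libraries. Idh2, a mitochondrial source of NADPH, was at 188 ± 9.97 CPM in EGF libraries 1 to 4 (SD, n = 4) and 219 ± 11.03 CPM with Saline (SD, n = 5; DESeq2 adjusted p = 0.0387). Txnip, which binds and inhibits thioredoxin, was the higher one, at 265 ± 14.1 CPM in EGF libraries 1 to 4 (SD, n = 4) and 215 ± 13.2 CPM with Saline (SD, n = 5; DESeq2 adjusted p = 0.00203, edgeR adjusted p = 0.108). In EGF replicate 5 Txnip was at 159.5 CPM, below all Saline libraries. The others that passed were Pgd and Gstm1.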
